A study of Homo sapiens with 6 samples.

Results

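A set of 10 transcription factors that build and maintain the melanocyte lineage were followed in WM164, an established human melanoma cell line. They were taken by symbol from the deposited count table, where each of the 10 names matched a single row of 58870 genes: SOX10, SOX9, SOX5, SOX4, PAX3, TFAP2A, TFAP2B, TFAP2C, POU3F2 (which encodes BRN2) and IRF4. RNA was sequenced from cells transduced with a lentivirus for green fluorescent protein (GFP, 3 libraries) and from cells given T-MGM, a fusion in which the melanocyte isoform of MITF is joined to MAFG through a flexible linker (3 libraries). Both groups were the same cell line in the same medium, the constructs were driven by the EF1α promoter and blasticidin was used for selection. The labels do not say that the libraries came from separate cultures, so p-values measure only the spread between these libraries, which may be technical.

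Melanocytes arise from the neural crest, an embryonic population whose fate is set by a small circuit of transcription factors. PAX3 and SOX10 switch on MITF, the master regulator of pigment cells. TFAP2 proteins act beside MITF at its target sites, and SOX5 and SOX9 modulate SOX-bound genes. POU3F2 is known in melanoma as a factor of invasive, poorly pigmented cells, and IRF4 cooperates with MITF at the tyrosinase gene. Loss of MITF and SOX10 together with gain of SOX9 is a familiar sign of dedifferentiated melanoma.

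Depth was 35057239 to 38738065 counts per GFP library and 44577774 to 59250663 per T-MGM-labelled library, and normalized counts, CPM and TPM below are scaled for depth while values called raw counts are not. MAFG itself did not check the labels, with 2458 ± 70.3 normalized counts with GFP against 2358 ± 34.9 in T-MGM-labelled libraries (SD, n = 3 each). The 7 melanocytic markers examined (PMEL, MLANA, TYR, DCT, MITF, SOX10 and S100B) were all measured in every library. All 7 passed a DESeq2 adjusted p of 0.05, beside 66.2% of genes averaging 800 or more normalized counts. On the log2 scale 4 were lower in T-MGM-labelled libraries (DCT at -2.49, MLANA at -0.68, TYR at -0.35 and S100B at -0.21). The other 3 were slightly higher (PMEL at 0.05, MITF at 0.08 and SOX10 at 0.11). Of 13 markers of keratinocytes, fibroblasts, leukocytes and endothelium, 5 had at most 3 counts in every library, among them KRT5, TP63 and the leukocyte genes PTPRC and CD3E. The summed level of the 13 was 27.4 to 28.8 CPM (counts scaled to library total) in GFP and 38.9 to 45.1 CPM in T-MGM-labelled libraries, most of it from CD68 and LUM. COL1A1, LUM, PDGFRA and CD68 passed the test upwards, and their part in the results below was not tested.

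The lineage factors spanned several orders of magnitude in abundance. Levels between genes are given as TPM (a transcript share scaled to a fixed total), which the authors scaled for transcript length. SOX10 was the most abundant at 416 ± 3.14 TPM with GFP and 403 ± 12.4 TPM in T-MGM-labelled libraries (SD, n = 3 each), which placed it at rank 197 among 13643 genes with a mean of at least 0.5 TPM. TFAP2A followed at 40.5 ± 1.28 TPM in GFP. Next came SOX5 at 22.6 ± 1.8, PAX3 at 18.3 ± 0.804, TFAP2C at 14.9 ± 0.287 and POU3F2 at 11.3 ± 0.486 TPM in the GFP libraries. SOX4 at 3.19 ± 0.0569 TPM and IRF4 at 2.91 ± 0.229 TPM were lower still. SOX9 was at 0.0867 ± 0.0208 TPM and TFAP2B was listed at 0 TPM in every GFP library. No neighbours in this order had overlapping TPM ranges over the GFP libraries. MITF, the factor on which several of these converge, stood between SOX10 and TFAP2A at 138 ± 1.56 TPM with GFP and 133 ± 2.73 TPM in T-MGM-labelled libraries.

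**Figure D1:**
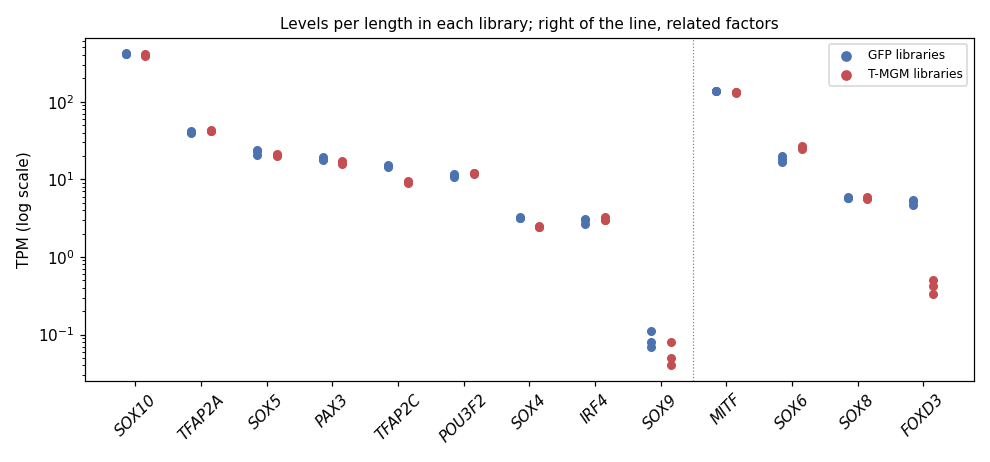
TPM on a log scale for 9 lineage factors and, right of the dotted line, 4 related factors, with 1 point per library (GFP blue, T-MGM red). SOX10 lies near 400 TPM in both groups and SOX9 near 0.1 TPM, while FOXD3 separates the groups most. TFAP2B is left out because it is listed at 0 TPM in 5 of 6 libraries.

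The order was nearly the same in T-MGM-labelled libraries, with 2 exchanges between neighbours. POU3F2 (11.9 ± 0.18 TPM) stood above TFAP2C (9.21 ± 0.314 TPM), and IRF4 (3.07 ± 0.161 TPM) above SOX4 (2.46 ± 0.0361 TPM; SD, n = 3 each). When levels were instead expressed as depth-scaled counts per kilobase of the longest annotated transcript, TFAP2C also went from above POU3F2 in GFP (17 against 13.4) to below it in T-MGM-labelled libraries (11.2 against 15). On that scale SOX4 and IRF4 were level in T-MGM-labelled libraries (3.77 each). TFAP2C went from place 3 to place 6 on that scale.

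None of the 10 factors reached the threshold for differential expression, an adjusted p at or under 0.05 with a change over 2-fold. DESeq2 gave an adjusted p to 9 of them and called 0, where 4.63% of 19135 genes tested were called, and the number with an unadjusted p under 0.05 and a change over 2-fold was also 0. edgeR and limma called 0 members as well. Among well measured genes, averaging 800 or more normalized counts, only 0.697% were called, and 8 of the members belong to that class. Without the fold threshold 7 of the 9 passed an adjusted p of 0.05, 5 upwards and 2 downwards, beside a background of 38.4% of all genes tested and 66.2% of those with a mean of at least 800. GFP and T-MGM-labelled libraries were fully separate in normalized counts for 7 members, against 46.8% of all genes tested and 70.6% of the well measured ones. The counts of members past the adjusted p and without overlap are therefore to be read against a high background.

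**Figure D2:**
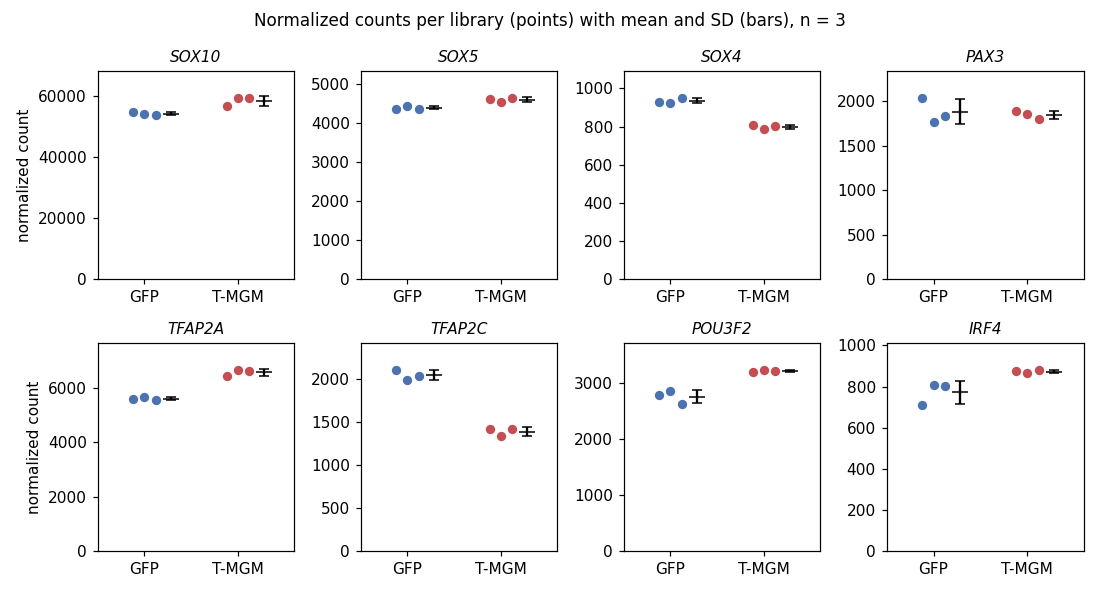
Normalized counts of the 8 well measured lineage factors, with 1 point per library and the mean ± SD (n = 3) beside each group, on axes that start at 0. The groups separate for every factor shown except PAX3, and TFAP2C has the widest gap relative to its level.

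TFAP2C, an AP-2 factor of the early ectoderm and neural crest, had the largest fitted change among the 8 well measured members. It lies on chromosome 20 from 56629306 to 56639283 (GRCh38). GFP libraries held 2106, 1990 and 2038 normalized counts, T-MGM-labelled libraries 1420, 1338 and 1421. All 3 of the latter lay far below the lowest GFP library. TFAP2C fell by 0.55 on the log2 scale (± 0.05 SE), to 0.682 of the GFP level with a 95% interval of 0.64 to 0.727 and a DESeq2 adjusted p of 5.92e-31. Genes within 10 Mb of TFAP2C also lay low, with a median log2 fold change of -0.21 over 103 genes, and less that median TFAP2C stood at -0.34, with SOX4 at -0.37 on the same measure. Its direction and its adjusted p call were the same in all 16 other fits, from -0.69 to -0.52 on the log2 scale.

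TFAP2A, the AP-2 family member that specifies neural crest and cooperates with MITF in melanocytes, moved the other way. It lies on chromosome 6 from 10393186 to 10419659 (GRCh38). GFP libraries held 5599, 5665 and 5558 normalized counts, T-MGM-labelled libraries 6424, 6648 and 6619, so each of the latter was above every GFP library. TFAP2A rose by 0.23 on the log2 scale (± 0.02 SE, adjusted p by DESeq2 1.4e-18), a 1.17-fold change with a 95% interval of 1.13 to 1.21. Its neighbours within 10 Mb had a median of -0.02. In the TPM values the change was 0.07 on the log2 scale and failed the threshold (adjusted p by limma 0.167 to 0.265 over 3 fits), on a scale where the median gene lay at -0.13 to -0.15. With the median gene subtracted the TFAP2A change was 0.20. TFAP2A-AS1 lies within the same region on the opposite strand and had 16 to 94 raw counts, few beside those of TFAP2A.

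Because these AP-2 genes moved apart, their ratio within each library was examined, which needs no scaling between libraries. For every 100 TFAP2A counts there were 37.6, 35.1 and 36.7 TFAP2C counts with GFP against 22.1, 20.1 and 21.5 in T-MGM-labelled libraries. In TPM the ratio was 38.9, 35.7 and 35.7 per 100 with GFP against 22.3, 20.3 and 22.2 in T-MGM-labelled libraries. The groups did not overlap on either scale. The pair was chosen for its opposite changes in these libraries, so this separation is no further evidence. An exact permutation test of 3 against 3 libraries cannot go below a 2-sided p of 0.10, so none is given. TFAP2B, the third AP-2 member, was close to background with 1, 1 and 0 raw counts with GFP against 4, 0 and 0 in T-MGM-labelled libraries. DESeq2 gave TFAP2B no adjusted p, and these counts are too few to show a difference.

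POU3F2, also named BRN2, is a POU-domain factor that is held in balance with MITF in melanoma cells. It lies on chromosome 6 from 98834574 to 98839458 (GRCh38). GFP libraries held 2778, 2851 and 2623 normalized counts, T-MGM-labelled libraries 3185, 3219 and 3200, with no overlap and a narrow range in the latter. POU3F2 rose by 0.22 on the log2 scale (± 0.04 SE, adjusted p by DESeq2 1.07e-08), a 1.16-fold change with a 95% interval of 1.11 to 1.22. Genes within 10 Mb had a median of -0.04. In TPM values POU3F2 stood at 0.07 on the log2 scale (limma adjusted p of 0.331 to 0.464 over 3 fits). The median gene lay at -0.13 to -0.15 on that scale, and with it subtracted POU3F2 was at 0.20. Counted within each library, POU3F2 was 14.5, 14.9 and 13.7 per 100 MITF counts with GFP against 15.6, 16 and 15.8 in T-MGM-labelled libraries. This within-library ratio separated the groups by a small margin, but MITF counts may include reads from the construct. The TPM ranges of POU3F2 overlapped, at 10.8 to 11.8 with GFP and 11.7 to 12.1 in T-MGM-labelled libraries.

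SOX4, a SOXC factor of embryonic progenitors, was lower in T-MGM-labelled libraries. The gene lies on chromosome 6 from 21593751 to 21598619 (GRCh38). GFP libraries held 928, 926 and 950 normalized counts, T-MGM-labelled libraries 808, 788 and 802, and the groups did not overlap. SOX4 fell by 0.22 on the log2 scale (± 0.06 SE, adjusted p by DESeq2 0.00143), to 0.856 of the GFP level with a 95% interval of 0.785 to 0.932. The call was lost in 1 of 16 other fits, limma on log2(TPM + 1) without a filter, at -0.27 (adjusted p of 0.0513, range over the fits 4.88e-05 to 0.0513). Its neighbours within 10 Mb had a median of 0.14, opposite in sign to SOX4.

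Upstream sequences from RefSeq (GRCh38.p14) were compared for the members with an entry, which were 7 of 10 and leave out SOX10, SOX9 and TFAP2C. The 250 bases before the first listed start site are shown for 3 of these, TFAP2A and POU3F2 (higher in T-MGM-labelled libraries) and SOX4 (lower). SOX5 and IRF4, which passed the adjusted p less firmly, are not shown. Capitals mark each CCAAT box, a common promoter element read here as CCAAT or, on the other strand, ATTGG.
TFAP2A, chr6:10419660-10419909, minus strand: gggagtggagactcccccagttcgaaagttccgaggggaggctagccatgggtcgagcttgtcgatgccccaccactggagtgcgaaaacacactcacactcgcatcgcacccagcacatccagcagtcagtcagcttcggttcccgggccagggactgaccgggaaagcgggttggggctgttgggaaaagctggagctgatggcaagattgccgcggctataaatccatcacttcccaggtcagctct
POU3F2, chr6:98834324-98834573, plus strand: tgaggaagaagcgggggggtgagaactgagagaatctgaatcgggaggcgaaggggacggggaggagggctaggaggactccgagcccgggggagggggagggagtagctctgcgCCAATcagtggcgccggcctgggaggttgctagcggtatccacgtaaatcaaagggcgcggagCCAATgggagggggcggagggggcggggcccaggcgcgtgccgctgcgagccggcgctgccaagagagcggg
SOX4, chr6:21593501-21593750, plus strand: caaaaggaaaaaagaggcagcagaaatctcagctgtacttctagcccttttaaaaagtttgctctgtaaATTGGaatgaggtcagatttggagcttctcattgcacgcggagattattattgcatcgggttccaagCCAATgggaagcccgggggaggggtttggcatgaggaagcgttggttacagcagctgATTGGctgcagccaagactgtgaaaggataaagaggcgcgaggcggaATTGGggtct
SOX4 had 4 CCAAT boxes, POU3F2 had 2 and TFAP2A had 0. Of those not shown, PAX3 had 2, TFAP2B had 1, and SOX5 and IRF4, both higher in T-MGM-labelled libraries, had 0. A CCAAT box was present in 4 of the 7 members and in 33% of 27305 upstream sequences of the same length. The hexamers CATGTG and CACGTG, which MITF binds, were found on neither strand of any of the 7, against 9.54% and 6.49% of all sequences. TGANTCA, the AP-1 motif, was also absent from the 7 (6.6% of all), and TGCTGA, a stretch of the MAF recognition element, was in TFAP2B alone (14.1% of all). These matches describe these windows only.

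SOX10 is the SOXE factor on which melanocyte survival and MITF transcription depend. It lies on chromosome 22 from 37970686 to 37987422 (GRCh38). GFP libraries held 54565, 54170 and 53752 normalized counts, T-MGM-labelled libraries 56524, 59320 and 59302. The lowest T-MGM library was above the highest GFP library, by less than the range within the T-MGM group. SOX10 differed by 0.11 on the log2 scale (± 0.02 SE, adjusted p by DESeq2 4.24e-10), a 1.08-fold difference with a 95% interval of 1.05 to 1.1. This difference was no larger than that of the genes around it, since 195 genes within 10 Mb had a median of 0.12. The longest SOX10 transcript has a GC content of 62.3%, in the highest of 10 equal GC classes of measured genes. Median log2 fold changes rose over these classes, from -0.16 in the lowest to 0.15 in the highest. With offsets for GC content and length the sign turned to -0.035 (DESeq2 adjusted p of 0.0376), and in TPM values it was -0.048 (limma adjusted p of 0.206 to 0.389), or 0.083 with the median gene subtracted. Scaling by total counts left 0.055 (DESeq2 adjusted p of 0.00266), so the sign of the SOX10 difference depended on how the counts were corrected.

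SOX10 and MITF kept nearly the same proportion in all libraries. There were 286, 283 and 280 SOX10 counts per 100 MITF counts with GFP against 276, 295 and 293 in T-MGM-labelled libraries, with overlapping ranges. MITF differed by 0.08 on the log2 scale (± 0.02 SE), and its neighbours had a median of 0.08 as well. Reads from the construct that match MITF would be counted with those of the endogenous gene. As with MAFG, the MITF counts did not check the labels.

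PAX3, the paired-box factor that primes melanoblasts and acts with SOX10 on MITF, lies on chromosome 2 from 222199887 to 222298998 (GRCh38). GFP libraries held 2035, 1770 and 1833 normalized counts, T-MGM-labelled libraries 1893, 1851 and 1803, so the latter lay inside the GFP range. The log2 fold change was -0.02 (± 0.05 SE, adjusted p by DESeq2 0.776), and the 95% interval ran from 0.92 to 1.05 of the GFP level. GFP replicate 1 was the highest library, and without it the difference was 0.036 on the log2 scale. Genes within 10 Mb of PAX3 had a median of -0.18.

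SOX5, a SOXD factor without a transactivation domain of its own that tempers SOX10 activity, spans chromosome 12 from 23529504 to 24562544 (GRCh38). GFP libraries held 4376, 4443 and 4370 normalized counts, T-MGM-labelled libraries 4628, 4539 and 4648, separate but close. The log2 fold change was 0.07 (± 0.03 SE, adjusted p by DESeq2 0.043), a 1.05-fold difference that was near the threshold. The call was lost without any of GFP replicates 1, 2 and 3 or T-MGM replicates 1 and 3 (0.061 to 0.075 on the log2 scale, DESeq2 adjusted p of 0.0674 to 0.151) and with the replicate block (0.165). Scaling by total counts left 0.014 (DESeq2 adjusted p of 0.767). The sign turned in TPM values (-0.13 and -0.14), and with the median gene subtracted the difference was -0.00099. The longest SOX5 transcript has a GC content of 39.2%, in a GC class whose median log2 fold change was -0.12. With GC and length offsets the difference was larger, at 0.20 on the log2 scale (DESeq2 adjusted p of 2.18e-11).

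SOX6, the close relative of SOX5 with which it pairs, moved more. Its mean normalized count was 3966 ± 60.8 in GFP and 5964 ± 114 in T-MGM-labelled libraries (SD, n = 3 each), 0.59 higher on the log2 scale (± 0.03 SE, adjusted p by DESeq2 4.62e-97). There were 92.1, 87.9 and 90.7 SOX6 counts per 100 SOX5 counts with GFP against 132, 130 and 127 in T-MGM-labelled libraries. Thus SOX5 had the higher count in each GFP library and SOX6 in each T-MGM-labelled library. In TPM the ratio was 95.7, 69.2 and 79.4 per 100 with GFP against 135, 121 and 122 in T-MGM-labelled libraries. SOX6 shares part of its locus with C11orf58 on the opposite strand, which limits how surely its reads are assigned.

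IRF4, an interferon regulatory factor family member that raises tyrosinase expression together with MITF, lies on chromosome 6 from 391739 to 411443 (GRCh38). GFP libraries held 709, 808 and 801 normalized counts, T-MGM-labelled libraries 874, 864 and 880. GFP replicate 1 was well below the other GFP libraries. IRF4 had a log2 fold change of 0.18 (± 0.07 SE, adjusted p by DESeq2 0.0302), a 1.13-fold difference with a 95% interval of 1.03 to 1.24. Without GFP replicate 1 it was 0.12 (DESeq2 adjusted p of 0.237), and the call was also lost without T-MGM replicate 1, 2 or 3 (DESeq2 adjusted p of 0.0853, 0.0656 and 0.102) and with the replicate block (0.113). It was also lost with total-count scaling, at 0.12 (DESeq2 adjusted p of 0.163), with a filter on low counts (0.0546) and without independent filtering (0.051). In TPM values IRF4 stood at 0.056 to 0.073 (limma adjusted p of 0.609 to 0.683 over 3 fits), or 0.19 with the median gene subtracted. Its TPM ranges overlapped, at 2.65 to 3.06 with GFP and 2.95 to 3.25 in T-MGM-labelled libraries. The direction was upwards in all 16 other fits.

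SOX9, the SOXE factor of cartilage and of dedifferentiated melanoma, was near the detection limit. Its locus is on chromosome 17 from 72121020 to 72126416 (GRCh38). GFP libraries held 13, 13 and 19 raw counts, T-MGM-labelled libraries 12, 8 and 23. The groups overlapped, with a log2 fold change of -0.51 (± 0.55 SE, adjusted p by DESeq2 0.531) and a 95% interval of 0.335 to 1.48 of the GFP level. Against SOX10, whose raw counts ran from 45503 to 80361, SOX9 transcripts were rare in both groups.

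**Figure D3:**
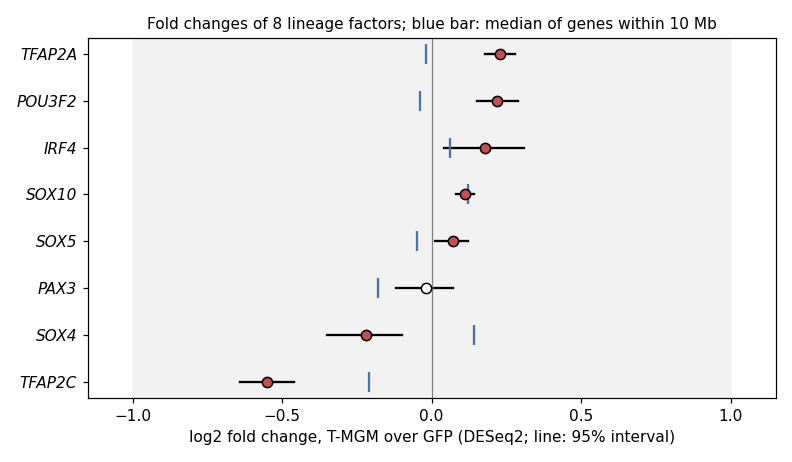
Log2 fold change of T-MGM over GFP (DESeq2) with its 95% interval for 8 lineage factors, red where the adjusted p was at or under 0.05 and hollow where it was not, and the median of genes within 10 Mb as a blue bar. Every factor lies inside the shaded zone of changes under 2-fold, SOX10 lies on its neighbours' median and TFAP2C is lowest at -0.55.

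Replicates of the well measured members were tight. The coefficient of variation of normalized counts within a group was lowest for POU3F2 in T-MGM-labelled libraries (0.529%) and highest for PAX3 in GFP (7.36%), where counting error alone would give 1.64% and 2.47%. IRF4 in GFP was next at 7.15%. For SOX9 in GFP the spread was 23.6% and the counting error 25.8%.

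Among other lineage transcription factors some passed the 2-fold threshold. Of 24 that were listed from general knowledge, 20 had an adjusted p, 12 passed upwards and 4 downwards, and 6 were called with a change over 2-fold, 5 up and 1 down. The list was drawn up with earlier results of these data known, so its counts cannot show enrichment. Of all genes tested, 19.2% passed in each direction, 3.26% were called up and 1.36% down. Of the 24 factors, 10 averaged 800 or more normalized counts, a class in which 66.2% of genes passed and 0.697% were called. The median log2 fold change of the 20 was 0.12, beside 0.00 over all genes tested. FOXD3, a neural crest forkhead factor that restrains melanocyte fate, averaged 497 ± 36.1 normalized counts with GFP against 45.2 ± 9.1 in T-MGM-labelled libraries (SD, n = 3 each) and fell by 3.46 on the log2 scale (adjusted p by DESeq2 1.27e-102). NR2F1, an orphan nuclear receptor of the neural crest, rose by 2.42 (± 0.21 SE) and ZIC1, a zinc finger factor of the neural plate border, by 2.03 (± 0.38 SE), from low means of 41.1 and 17.3 normalized counts. ID1, ID3 and EGR2 rose by 1.06, 1.01 and 1.09 on the log2 scale. ID proteins block basic helix-loop-helix factors by dimerising with them, and EGR2 drives myelination in Schwann cells.

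These calls differed in firmness. FOXD3 and NR2F1 were called in all 16 other fits. ZIC1 and EGR2 were under 2-fold in 2 of the fits on TPM values. ID1 was under 2-fold in 4 fits and ID3, whose fold is close to the threshold, in 7, among them those without GFP replicate 1 or T-MGM replicate 2, with a range of 0.84 to 1.04. For ID1 and ID3 these fits included the one with GC and length offsets. All 6 kept their direction in every fit tried.

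Relatives of the members within the SOX, PAX, TFAP2, POU3 and IRF families gave no call over 2-fold with DESeq2. Of 29 relatives, 8 had at most 3 counts in every library and 15 had an adjusted p, of which 4 passed upwards and 4 downwards, beside 19.2% of all genes tested in each direction. DESeq2 called 0 of them (4.63% of all genes tested) and 1, SOX18, had an unadjusted p under 0.05 with a change over 2-fold. SOX18, an endothelial SOXF factor, had 7.19, 7.58 and 9.14 normalized counts with GFP against 11.9, 27.3 and 19.2 in T-MGM-labelled libraries, and was called by edgeR alone (log2 fold change 1.27). SOX8, the remaining SOXE gene, differed by 0.16 (± 0.06 SE) and kept its proportion to SOX10, at 1.7, 1.68 and 1.73 per 100 SOX10 counts with GFP against 1.81, 1.67 and 1.81 in T-MGM-labelled libraries. Of the relatives, 5 are also counted among the other lineage factors.

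**Figure D4:**
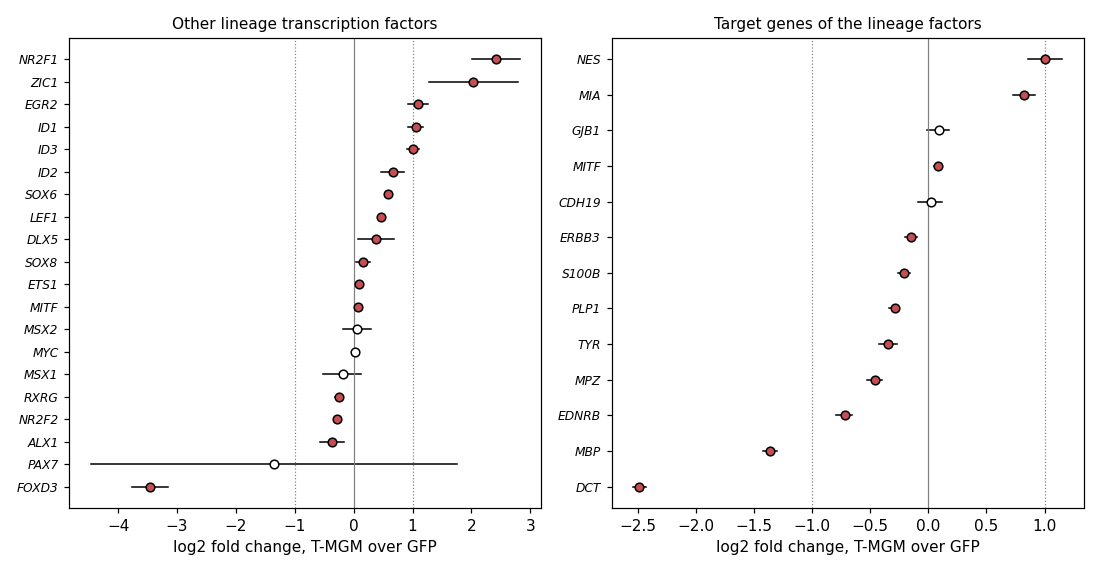
Log2 fold change of T-MGM over GFP with 95% intervals for the lineage factors (left) and target genes (right) that had an adjusted p, red where it was at or under 0.05, with dotted lines at 2-fold. FOXD3 is lowest on the left at -3.46 and NR2F1 highest at 2.42, while on the right DCT and MBP lie below the lower line.

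Genes that these factors are known to switch on were examined last. Of 16 textbook targets of SOX10, PAX3, TFAP2A or IRF4, 13 had an adjusted p, of which 3 passed upwards and 8 downwards, and 3 were called. This list too was drawn up with earlier results known, so its counts cannot show enrichment. All 13 averaged 800 or more normalized counts, a class in which 66.2% of genes passed the adjusted p and 0.697% were called (38.4% and 4.63% of all genes tested). Their median log2 fold change was -0.21, but not all fell. MIA rose by 0.82 (± 0.05 SE), while CDH19 (0.02) and GJB1 (0.09) did not pass the adjusted p. DCT, a melanin synthesis enzyme, fell by 2.49 (± 0.03 SE), and MBP, a myelin protein of the SOX10 programme, fell by 1.36 (± 0.03 SE), both in 3 of 3 libraries and both called in all 16 other fits. NES, an intermediate filament of neural progenitors, rose by 1.00 (± 0.07 SE), at the threshold itself, and was under 2-fold in 8 fits. They include the fit with GC and length offsets and those without GFP replicate 1, T-MGM replicate 1 or T-MGM replicate 2. The lowest value was 0.62.

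Set against SOX10 in the same library, DCT went from 20.8, 21.1 and 21.6 counts per 100 SOX10 counts in GFP to 3.61, 3.62 and 3.32 in T-MGM-labelled libraries. MBP went from 11.1, 10.8 and 10.9 to 4.09, 3.77 and 4. The ratios did not overlap between groups, while SOX10 itself differed 1.08-fold. DCT and MBP were taken because they were called lower, so this separation repeats those calls and is no further evidence. In bulk RNA, fewer cells that express a gene and less RNA per cell cannot be told apart.

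**Figure D5:**
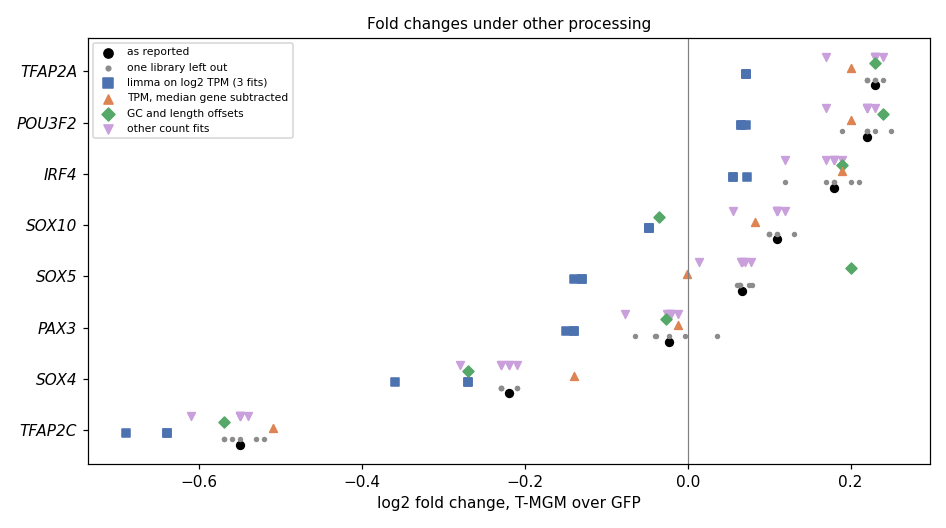
Log2 fold change of the 8 well measured lineage factors as reported (black) and under other processing, including fits without 1 library (grey), limma on TPM values (blue), the same with the median gene subtracted (orange) GC and length offsets (green) and the remaining count fits (violet). TFAP2C and SOX4 stay below 0 and TFAP2A, POU3F2 and IRF4 above 0 in every setting, whereas SOX10, SOX5 and PAX3 cross it.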

How the data were processed

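RNA from 6 libraries of WM164 cells was sequenced. Per the study's methods, cutadapt removed adapters and STAR placed the reads on GRCh38, after which the authors used featureCounts to sum uniquely placed reads for each gene. The deposited gene counts are whole numbers without normalization. The TPM values deposited beside them came from RSEM and were scaled by the authors for transcript length and library total. The submitters' processing notes give cutadapt 1.8.1, STAR 2.7.7a and RSEM 1.3.0, and the annotation release is not given in the sources used here. The labels name a library kit without strand and the study's methods a strand-specific kit, so reads of overlapping genes on opposite strands may not be separable.

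The members and gene lists were chosen with earlier results of these data known. All 58870 genes entered DESeq2 1.42.0 (R 4.3.3) as GFP against T-MGM with its median-ratio scaling and Wald test, and Benjamini-Hochberg adjustment over 19135 genes. A gene was called at an adjusted p at or under 0.05 and a change over 2-fold. Errors are SD over libraries. Every member was named, and in other lists the called genes and MITF. SOX6, SOX8, SOX18, MIA, CDH19, GJB1, TFAP2A-AS1, FOXD3-AS1 and C11orf58 were named after their values were seen. Alternatives were edgeR 4.0.16, limma 3.58.1 on log2(TPM + 1) and log2(TPM + 0.1), other scalings and filters, GC and length offsets, a replicate block and fits without each library. On simulated data for this comparison (32338 genes), DESeq2 recovered 100 of 100 genes changed by 2 on the log2 scale and 88 of 100 changed by 0.6. Changed genes averaged 50 or more normalized counts and were scored by adjusted p alone, and 29 unchanged genes also passed. Every well measured member moved by less than 0.6, so recovery of changes of that size was not simulated. Positions are from GENCODE 44.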

Additional observations from a re-analysis of the deposited data

How the results depend on the processing

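The number of members called stayed at 0 in each fit tried. Members past the adjusted p numbered 7 as reported and 2, 2 and 1 with limma on log2(TPM + 1), log2(TPM + 0.1) and log2(TPM + 1) without a filter, where 133, 369 and 126 of all genes were called in place of 885 and 52.6%, 55.3% and 52.4% of calls were upwards in place of 70.5%. With log2(TPM + 1), filtered or not, 2 and 2 other lineage factors were called. edgeR called 1 family relative. By counts per kilobase, 6 of 10 members kept their place. SOX10 turned to -0.048 in the 3 TPM fits, -0.035 with GC and length offsets and -0.016 less its neighbours. SOX5 turned to -0.13, -0.14 and -0.13 in the TPM fits. With the median gene subtracted from TPM values, an alternative chosen after seeing the data, SOX10 was 0.083 and SOX5 -0.00099. PAX3 turned to 0.15 less its neighbours and to 0.036 without GFP replicate 1, and ranged from -0.065 to 0.036 without 1 library. TFAP2B, with at most 4 counts, turned to -2.28 without T-MGM replicate 1 and ranged from -2.28 to 1.27. The cause was not tested. Without 1 library, 765 to 810 of all genes were called.

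Same-numbered libraries did not deviate together (r of -0.00665, -0.0579 and 0.0291 over 12654 genes), and unlike-numbered pairs ran from -0.089 to 0.0916. The labels give only a number, so whether same-numbered libraries were handled together is not known. With the replicate block 735 genes were called, TFAP2B was -0.64, and SOX5 and IRF4 lost their calls (DESeq2 adjusted p of 0.165 and 0.113). Counts under about 20, as for SOX9 and TFAP2B, limit what could be detected.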

Other observations

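TFAP2A-AS1, a transcript on the strand opposite TFAP2A, had 16, 36 and 36 raw counts in GFP and 76, 76 and 94 in T-MGM-labelled libraries, a log2 fold change of 1.09 (DESeq2 adjusted p of 0.00112). TFAP2A-AS2 stood at 0.44 (adjusted p of 0.383) and CCDC140, over PAX3, at 0.53 (adjusted p of 0.265), neither past the threshold by DESeq2. POLR2F, which overlaps SOX10 on the opposite strand, stood at 0.06 (DESeq2 adjusted p of 0.0264). FOXD3-AS1, opposite FOXD3, had 53, 53 and 46 raw counts in GFP and 23, 27 and 45 in T-MGM-labelled libraries. Its log2 fold change was -1.10 (DESeq2 adjusted p of 0.00194). FOXD3 itself had 39, 55 and 63 raw counts in the latter, so its reads there are less surely assigned. These genes were chosen after their values were seen.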
